A study of Mus musculus with 8 samples.

Results

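The comparison covered 8998 of the 30408 cells in the data, namely the cells of the 2 libraries whose names begin with d2, collected 2 days after growth factors were withdrawn. One library held 4900 cells labelled Kmt2d+/βgeo and the other held 4098 wild-type cells. All cells of both libraries were used, and no cell was selected by its expression.

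The study grew neural stem and progenitor cells from the dentate gyrus of mouse embryos and profiled them by droplet single-cell RNA sequencing (10x Genomics 3′ chemistry), in which a unique molecular identifier (UMI) marks each captured RNA molecule. The cultures were kept undifferentiated with EGF and FGF2, and cells were taken with the factors present (day 0) and 2, 4 and 8 days after their removal. The series holds 8 libraries, with 1 library for each genotype and day. The Kmt2d+/βgeo cells carry 1 copy of the gene-trap allele Mll2Gt(RRt024)Byg and come from a mouse model of Kabuki syndrome, and the wild-type cells are labelled C57BL/6J. Embryos of both genotypes were littermates from C57BL/6J females mated to Kmt2d+/βgeo males. The number of embryos per culture and the strain of the fathers were not given in the sources used here. Embryo, culture, library and genotype therefore cannot be told apart in any value below. No test was run, and every interval covers only counting error.

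The product of Kmt2d is a histone methyltransferase that places methyl groups on lysine 4 of histone H3, mainly at enhancers, and loss of 1 working copy causes most cases of Kabuki syndrome in people. Neural progenitors divide while EGF and FGF2 are present. When the factors are withdrawn they leave the cell cycle and turn on genes of astrocytes or neurons. Astrocytes clear glutamate from the space around synapses, convert it to glutamine, buffer potassium and are coupled to each other by gap junctions.

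The 2 libraries were sequenced to nearly the same depth. The median cell had 16273 UMIs in the Kmt2d+/βgeo library and 16692 in the wild-type library, of which 7566 and 7299 fell on the 9140 genes of the deposited matrix. A median of 2820 and 2774.5 of these genes was detected per cell. The libraries shared 5 cell barcodes, 0.122% of the smaller library. Of the labelled lineages, 8 of 15 neural progenitor markers, 17 of 24 astrocyte markers, 5 of 20 neuron markers and 5 of 19 oligodendrocyte lineage markers were in the matrix. Nes, Sox2, Gfap, Aqp4 and Dcx were among those not analysed here. Of other cell types that dissected tissue could hold, the matrix had 1 of 15 microglia and macrophage markers, 1 of 11 meningeal markers (Igfbp2), 1 of 11 ependymal and choroid plexus markers (Dynlrb2, below the level compared) and 0 of 14 endothelial and mural markers, so the presence of such cells was not tested.

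Kmt2d itself (chromosome 15, 98831669 to 98871204, GRCm38) had a mean normalised count per cell of 0.171 in the Kmt2d+/βgeo library and 0.197 in the wild-type library at day 2, a log2 ratio of -0.21. At days 0, 4 and 8 the ratio had the other sign, at 0.30, 0.32 and 0.27. The position of the gene trap relative to the 3′ reads is not known here, so the level of Kmt2d neither bears out the label nor goes against it. The Y-linked genes Ddx3y, Eif2s3y, Kdm5d and Uty were expressed in both libraries, with ratios from -0.32 to -0.05. One pair stood apart from the others. At day 4 the 2 libraries differed by 2-fold or more at 0 of 7459 genes, and the SD of the log2 ratios was 0.109, against 0.381 at day 2. Luzp2, at a mean of 1.48 in the Kmt2d+/βgeo library of day 2, stood at 0.0502 in the day 4 library with the same label and at 0.0422 in its wild-type counterpart. The genotype label of the day 4 pair is therefore in doubt, and its values are given with that doubt, for the main genes and lists.

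At day 2, 7364 genes reached a mean normalised count of 0.1 in either library and were compared. The log2 ratio of the means, Kmt2d+/βgeo over wild type, had a median of 0.00 and an SD of 0.38. It was at least 1, a 2-fold difference, for 124 genes that were higher in Kmt2d+/βgeo (1.68% of genes compared) and at most -1 for 85 genes that were lower (1.15%). As a difference of mean log2 values per cell, a scale that compresses low genes, 4 and 6 genes passed the same threshold. Genes with a small mean made up most of the first group. Below a mean of 0.25 over both libraries, 79 of 2421 genes were higher (3.26%) and 33 were lower (1.36%). At a mean of 4 or more, 3 of 285 genes were higher (1.05%) and 11 were lower (3.86%). Of these 11, Rps29, Rpl38 and Rps27 have transcripts under 500 nt and belong to a pattern described further on, which had the other sign at day 8. Rpl39 and Atp5mpl (612 nt each) are above the length at which that pattern was counted. Their ratios were -0.61 and -0.52 at day 4 and 0.60 and 0.07 at day 8. A gene that was low in one library was compared only where it was high enough in the other. Of the higher genes, 67 were under a mean of 0.1 in wild type, and of the lower genes, 23 were under it in Kmt2d+/βgeo, which fixed the sign of their ratios. Among the 6985 genes that reached 0.1 in both libraries, 57 were higher and 62 were lower. All 17 astrocyte markers described further on were among these.

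**Figure D1:**
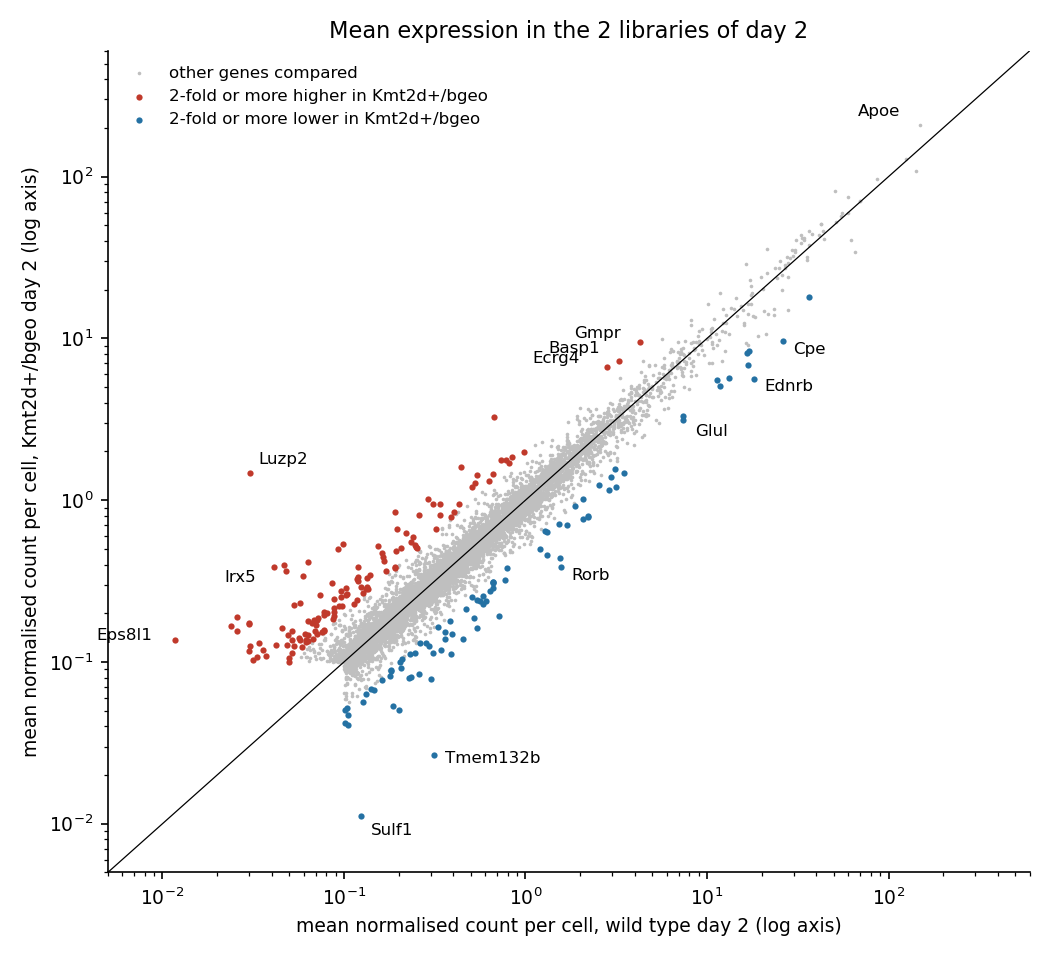
Mean normalised count per cell of each gene compared at day 2 in the wild-type library (x, log axis) and the Kmt2d+/βgeo library (y, log axis), with 124 genes at least 2-fold higher in red and 85 at least 2-fold lower in blue. Luzp2 stands farthest above the line of equal means, and Cpe and Ednrb are among the abundant genes below it.

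The gene with the largest difference was Luzp2 (ENSMUSG00000063297, chromosome 7, 54835498 to 55268885), which encodes a leucine zipper protein. Its mean was 1.48 in Kmt2d+/βgeo and 0.0305 in wild type, 48.5-fold higher. The summed UMIs were 6805 and 134, which gives a 95% counting interval of 5.13 to 5.63 on the log2 scale. To compare the share of cells that express a gene, every cell was thinned at random to 3000 UMIs. After thinning, 34.1% (32.7 to 35.4) of Kmt2d+/βgeo cells and 0.732% (0.494 to 1.04) of wild-type cells had a Luzp2 UMI. The ratio was 5.12 at day 0 and 5.51 at day 8.

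The 12 highest ratios included the transcription factor genes Irx5 and Nr2f2. Irx5, a homeobox factor of the Iroquois family, had means of 0.385 and 0.0412, 9.35-fold higher in Kmt2d+/βgeo, and was seen in 11.5% against 1.73% of thinned cells. Nr2f2 (COUP-TFII), a nuclear receptor that marks ventral and caudal parts of the telencephalon, had means of 0.413 and 0.0631 and was seen in 13% against 1.93%. Both were also more than 2-fold higher on days 0 and 8, with ratios of 2.32 and 2.97 for Irx5 and of 1.81 and 3.21 for Nr2f2. Nr2f2 was the 1 gene past 2-fold among 27 other neural patterning and fate factors, of which 17 had a ratio below 0, with a median of -0.11. The related homeobox genes Meis1 and Meis2, whose products partner with HOX and PBX proteins, differed in opposite directions. Meis1 was 2.43-fold higher (1.28 against 0.525) and Meis2 2.00-fold lower (0.641 against 1.28). The same opposition was seen at day 0, with ratios of 1.04 and -1.18, and at day 8, with 1.26 and -1.21, but not at day 4, with -0.01 and -0.02. Of the 22 homeobox genes compared, 2 were higher and 1 was lower by 2-fold (1.68% and 1.15% over all genes), and the median ratio was -0.04. Dbx2 was the most abundant of them, with means of 2.42 and 2.03. Among the lowest ratios was Rorb, an orphan nuclear receptor, with means of 0.386 and 1.57, 4.07-fold lower. After thinning, 11.8% of Kmt2d+/βgeo cells and 39.2% of wild-type cells had a Rorb UMI.

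Extracellular matrix genes leaned toward higher values in Kmt2d+/βgeo. Of 9 collagen genes compared, 8 had a ratio above 0, 2 were at least 2-fold higher and 0 were lower (1.68% and 1.15% over all genes), with a median log2 ratio of 0.71 against 0.00 over all genes. Both 2-fold higher collagens were under a mean of 0.1 in wild type and were compared only through the Kmt2d+/βgeo library. Of the 7 that reached 0.1 in both libraries, 0 passed 2-fold and 6 were above 0, with a median of 0.47. Col11a1, a fibrillar collagen chain, had means of 0.363 and 0.0482, 7.53-fold higher in Kmt2d+/βgeo. Col5a3, a chain of collagen V, had means of 0.338 and 0.0592, 5.72-fold higher. Both differences were present at day 0 (3.03 and 1.32) and at day 8 (2.95 and 2.13). The exception was Col5a2, with means of 0.725 and 0.941. Col4a1, a basement membrane collagen and the most abundant of the list, had means of 1.22 and 0.883.

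Of 23 other matrix genes, 17 had a ratio above 0, 4 were at least 2-fold higher and 1 was lower, with a median of 0.39. Over all genes, 49.6% were above 0, 1.68% were 2-fold higher and 1.15% lower. Among the 20 that reached 0.1 in both libraries, 14 were above 0, 2 were higher and 1 was lower, with a median of 0.33. Fbln1 and Fn1 were not among these 20. Fbln1 (fibulin-1) had means of 0.536 and 0.0988, 5.42-fold higher. Tnc (tenascin-C), a matrix protein of germinal zones, had means of 0.384 and 0.120, 3.21-fold higher. Fn1 (fibronectin) had means of 0.204 and 0.0773, 2.63-fold higher. Lamc1, the laminin gamma-1 chain, had means of 1.45 and 0.666, 2.17-fold higher, and was seen in 36.2% against 19.4% of thinned cells. Sparc, a collagen-binding glycoprotein and the most abundant of this list, had means of 28.7 and 16.4, a ratio of 0.80 that did not reach 2-fold. Its relative Sparcl1 went the other way, as described with the astrocyte genes. A pair of enzymes of the ADAMTS family, which cut matrix proteins, were also 2-fold higher, namely Adamts1 (0.169 against 0.0700) and Adamts10 (0.448 against 0.163). Adamts1 was compared only through the Kmt2d+/βgeo library. Among the other ADAMTS genes compared, Adamts5, Adamts9 and Adamts12 had ratios of -0.24, -0.27 and -0.24, and Adamts6 had 0.63. The list of proteases and inhibitors as a whole had 11 of 17 members below 0 and a median of -0.14. Receptors for matrix did not share this direction. Of 9 integrin list members compared, 0 were 2-fold higher and 1 was lower (Itga2, 0.0468 against 0.105), with a median of -0.34. Itga2 was compared only through wild type. Of the 8 that reached 0.1 in both libraries, 5 were below 0 and 3 above, with 0 higher and 0 lower by 2-fold and a median of -0.26. Itgb1 had means of 3.0 and 3.39.

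Genes of the actin and myosin cytoskeleton leaned the same way as the matrix. Of 29 compared, 25 had a ratio above 0 (49.6% over all genes), with a median of 0.29. Of the 29, 2 were 2-fold higher and 1 was lower (1.68% and 1.15% over all genes). Cnn2 (calponin-2), which binds actin filaments, had means of 0.850 and 0.402. The gene Tagln3, which encodes a calponin-like protein of neural cells, was 3.48-fold lower, at 0.0534 against 0.186. Tagln3 was compared only through wild type. Of the 28 members that reached 0.1 in both libraries, 2 were higher and 0 were lower. Vim, which encodes the intermediate filament protein vimentin, had means of 81.8 and 50.5, a ratio of 0.70. With Vim in it, the list of complement and reactive glia genes had 7 of 9 members above 0 (49.6% over all genes) and a median of 0.54. Cd59a, an inhibitor of complement, was 2.45-fold higher, and Cd109 was 3.10-fold lower (1.68% and 1.15% over all genes). Both were compared only through the library where they were high, which fixed their sign. Of the 7 members that reached 0.1 in both libraries, 6 were above 0, with 0 higher and 0 lower by 2-fold.

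All 12 of the genes with the highest ratios, Luzp2, Irx5, Nr2f2, Col11a1 and Col5a3 included, had a wild-type mean below 0.1 and were compared only through the Kmt2d+/βgeo library. Eps8l1, which links receptors to actin, had means of 0.138 and 0.0118 (50 UMIs in the wild-type library). Cybrd1, an iron-regulated ferric reductase, had means of 0.398 and 0.0465. The platelet-derived growth factor gene Pdgfd had means of 0.175 and 0.0299, the phosphodiesterase gene Pde1a had 0.155 and 0.0258, and Olfml1, for an olfactomedin-like secreted protein, had 0.190 and 0.0256. Cast, for the calpain inhibitor calpastatin, and Adamtsl1 also belonged to the 12 highest, but the spans of both genes overlap another gene of the deposited gene table and their counts are less certain. Among axon guidance genes, 4 of 31 were higher and 1 was lower, against 1.68% and 1.15% of all genes, while 16 had a ratio above 0 and 15 below, with a median of 0.11. Over the 27 that reached 0.1 in both libraries the median was -0.02, with 3 higher and 1 lower. Plxdc2, a plexin domain protein, had means of 0.501 and 0.0929, and Nfasc (neurofascin), a cell adhesion molecule of axons, had 1.01 and 0.289. Sema3a and Dpysl5 were 2.01-fold and 2.51-fold higher. The ephrin receptor gene Epha5 was 2.03-fold lower, at 1.02 against 2.07.

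The plot of thinned shares shows how these genes were spread over cells. For Luzp2, Irx5, Nr2f2, Col11a1 and Cybrd1, under 2% of wild-type cells had a UMI and more than 11% of Kmt2d+/βgeo cells did. In the Kmt2d+/βgeo library, each of the 7 other genes looked at in this way was seen somewhat more often in cells with a Luzp2 UMI, and these differences were not tested. There, 13.1% of cells with a Luzp2 UMI and 10.6% of cells without one had an Irx5 UMI. For Nr2f2 the shares were 14% and 12.4%, and for Col11a1 they were 11.7% and 11%. For Sparcl1 and Ednrb, which were lower in this library, the shares were 72.9% and 61.5%, and 75.7% and 71.3%. The wild-type library had 30 cells with a Luzp2 UMI, too few for this comparison. What free RNA alone would give in cells that lack the gene could not be measured, and the wild-type shares are the only comparison.

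**Figure D2:**
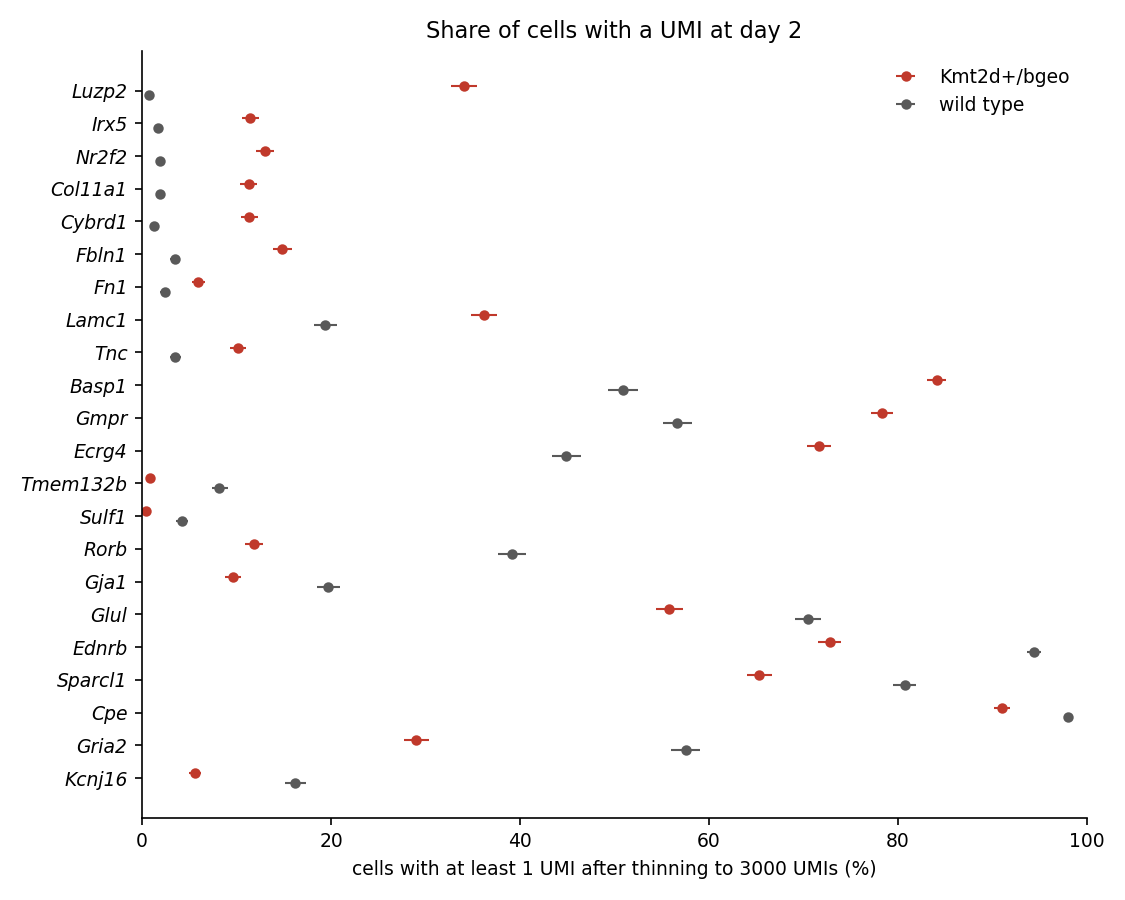
Share of cells with at least 1 UMI of each gene after every cell was thinned to 3000 UMIs (x, percent), in the Kmt2d+/βgeo library (red) and the wild-type library (grey) of day 2, with exact 95% intervals that cover counting error only. Luzp2 stands at 34.1% and 0.732%, Basp1 at 84.1% and 50.9%, and Rorb at 11.8% and 39.2%.

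Among abundant genes, Gmpr, Basp1 and Ecrg4 were higher in Kmt2d+/βgeo. Gmpr, for a guanosine monophosphate reductase of purine metabolism, had means of 9.46 and 4.30, and 78.4% against 56.7% of thinned cells had a UMI. Its level was highest at day 2. It stood at 0.375 and 0.430 at day 0 and at 0.797 and 0.749 at day 4. Its day 8 means were 1.57 and 1.37. The span of Gmpr overlaps another gene. Basp1, a membrane protein of growth cones, had means of 7.27 and 3.30. Ecrg4, a secreted precursor of signalling peptides, had means of 6.67 and 2.82. Serpinb6a, a protease inhibitor whose span overlaps another gene, had 1.61 and 0.444.

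Astrocyte markers leaned toward lower values in Kmt2d+/βgeo. Of 17 astrocyte markers compared, 14 had a ratio below 0, 3 were at least 2-fold lower and 0 were higher, with a median log2 ratio of -0.68. Over all genes compared, 50.4% were below 0, 1.15% were 2-fold lower and 1.68% were higher. Sparcl1, a secreted protein of astrocytes, had means of 6.87 and 16.8, 2.45-fold lower in Kmt2d+/βgeo, and was seen in 65.3% against 80.7% of thinned cells. Glul (glutamine synthetase) had means of 3.14 and 7.35, 2.34-fold lower, and Gja1 (connexin 43), the main gap junction protein of astrocytes, had means of 0.323 and 0.774, 2.40-fold lower. The metallothionein gene Mt3 had means of 34.1 and 65.0. Its longest transcript is 536 nt and its ratio was also low at day 4, at -0.50, as for the short transcripts described further on. S100b, the glutamate transporter genes Slc1a2 and Slc1a3 and the folate enzyme gene Aldh1l1 had ratios of -0.91, -0.85, -0.73 and -0.68, short of 2-fold. Sox9, a transcription factor of glial fate, had a ratio of -0.56. The exception was Apoe, the most abundant marker, with means of 210 and 150 and a ratio of 0.49, while Id3 and Nfia were at 0.09 and 0.02. Fewer cells of an astrocyte state and less RNA per cell of that state cannot be told apart in a library mean. For Sparcl1 and Glul both the share of cells with a UMI and the mean were lower. The median of the astrocyte list was -0.24 on day 0 and -0.25 on day 8, while the day 4 pair gave 0.05.

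Ednrb and Cpe were among the abundant lower genes. Ednrb, the endothelin B receptor, had means of 5.65 and 18.2, 3.23-fold lower, and 72.8% against 94.4% of thinned cells had a UMI. Cpe (carboxypeptidase E), which trims peptide precursors, had means of 9.58 and 26.1, 2.72-fold lower. Of the 23 G protein-coupled receptor genes compared, Ednrb was the 1 that was 2-fold lower (1.15% over all genes), and the median was -0.02. Adgra1 and Gpr37 were 2.15-fold and 2.93-fold higher (1.68% over all genes). Gpr37 was under 0.1 in wild type. Of the 21 that reached 0.1 in both libraries, 1 was higher and 1 was lower. The ratios of Ednrb were -0.94 at day 0 and -1.99 at day 8, and those of Cpe were -1.86 and -2.21. At day 4 they were 0.08 and -0.04. Of 15 glutamate receptor and transporter genes, 12 had a ratio below 0 and 2 were 2-fold lower (1.15% over all genes), with a median of -0.31. These were Gria2, an AMPA receptor subunit (1.21 against 3.14), and Grm5, a metabotropic receptor (1.55 against 3.13). Gria3, another AMPA subunit, was at 0.440 against 0.268, a ratio of 0.72. Of 14 potassium channel genes, 11 had a ratio below 0, 3 were 2-fold lower and 1 was higher (1.15% and 1.68% over all genes), with a median of -0.39. The 1 higher gene was under 0.1 in wild type. Kcnj16, an inward rectifier of glia, had means of 0.162 and 0.540, Kcnmb4 had 0.707 and 1.68, and Kcnn2 had 0.164 and 0.329. The glial inward rectifier gene Kcnj10 had a ratio of -0.89. The member that went the other way was Kcnd2, a subunit of A-type channels, at 0.225 against 0.0533. Among 20 sodium, calcium and chloride channel genes the median was -0.03, with 1 higher and 1 lower (1.68% and 1.15% over all genes). Cacna2d3, an accessory subunit of calcium channels, was 3.24-fold lower, at 0.139 against 0.450, and Cacnb4, another calcium channel subunit, was 2.18-fold higher, at 0.191 against 0.0878. The span of Cacnb4 overlaps another gene, and Cacnb4 was compared only through the Kmt2d+/βgeo library. Of the 15 members of this list that reached 0.1 in both libraries, 0 were higher and 1 was lower, with a median of -0.12. Of 9 GABA and glycine receptor and transporter genes, 0 passed 2-fold, with a median of 0.06.

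The lowest ratios of all belonged to Tmem132b and Sulf1. Tmem132b, a transmembrane protein gene, had means of 0.0267 and 0.315, 11.8-fold lower, with summed UMIs of 104 and 1034 and a counting interval of -3.92 to -3.32. Sulf1, which removes sulphate groups from heparan sulphate chains, had means of 0.0112 and 0.124, 11.1-fold lower, with 50 and 462 UMIs and an interval of -3.96 to -3.09. At day 8 the ratios were -2.59 and -3.22, at day 4 they were 0.06 and -0.06, and at day 0 neither gene reached the level at which genes were compared. On days 2 and 8 both genes were under 0.1 in Kmt2d+/βgeo and were compared only through wild type, which fixed their sign. Bmper and Bmpr1b, a regulator and a receptor of BMP signalling, were 3.99-fold and 2.31-fold lower. Bmper was compared only through wild type and was not in the BMP and TGF-beta list. Fstl1, for a secreted protein that binds BMP ligands, was 2.48-fold higher, at 0.592 against 0.239. The 21 genes of that list had 1 higher (Fstl1) and 1 lower (Bmpr1b), against 1.68% and 1.15% over all genes, and a median of -0.01. Csrp1, Trim2 and Rnf180 were 3.51-fold, 3.49-fold and 3.73-fold lower. The abundant genes Txn1 (thioredoxin, 8.31 against 17.0) and Nnat (neuronatin, an imprinted gene, 8.16 against 16.7) were close to 2-fold lower. The span of Nnat overlaps another gene. Of 15 imprinted genes, Peg10 and Plagl1 were 2-fold higher and Nnat was 2-fold lower (1.68% and 1.15% over all genes), while 8 were above 0 and 7 below, with a median of 0.02.

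Of 15 cholesterol synthesis genes, 13 had a ratio below 0 (50.4% over all genes) but 0 were 2-fold lower, with a median of -0.26. The other 2 were above 0, among them Sqle, at 0.915 against 0.627. The list median was 0.12, 0.04 and 0.10 at days 0, 4 and 8. Hmgcs1, an early enzyme of the pathway and one of its abundant members, had means of 0.744 and 1.03. Of 25 fatty acid and lipid handling genes, 1 was 2-fold higher and 2 were lower (1.68% and 1.15% over all genes), with a median of -0.13. Acsl3 and Acsl6, which activate long-chain fatty acids, were 2.88-fold and 2.01-fold lower, and Fads3, a desaturase-like gene, was 2.11-fold higher. Acsl6 and Fads3 were compared only through the library where they were high. Of the 23 members that reached 0.1 in both libraries, 0 were higher and 1 was lower. Of 11 interferon and antigen presentation genes, Ifi27 (1.77 against 0.784), Ifit2 (0.246 against 0.0886) and Irf9 (0.138 against 0.0676) were 2-fold higher, and 0 were lower (1.68% and 1.15% over all genes). Ifit2 and Irf9 were compared only through the Kmt2d+/βgeo library. The median of that list was 0.00, and Stat3 had a ratio of -0.40. The span of Irf9 overlaps another gene. Of 30 immediate early genes listed, 4 were in the matrix and 3 were compared. Ccn1, a matrix-associated signalling protein gene (0.812 against 0.258), and Nr4a2, a nuclear receptor gene (0.204 against 0.0886), were 2-fold higher (1.68% over all genes). Nr4a2 was compared only through the Kmt2d+/βgeo library. Klf6 was at 0.948 against 0.796.

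Several lists that could have been affected held no gene at 2-fold. Of 18 genes of the Kmt2d complex and of H3K4 methylation, 0 were higher and 0 lower, with a median of -0.13. Kmt2a and Kmt2c, which encode related methyltransferases, had the lowest ratios, -0.56 and -0.42, and Kdm6a, whose product removes methyl groups from lysine 27 of histone H3 and is the second Kabuki syndrome gene, was at -0.09. The 17 polycomb and H3K27 genes had a median of -0.15 and also 0 past the threshold. Of 10 S phase and 6 G2 and M phase genes, 0 passed it, with medians of 0.19 and 0.17. Top2a, a topoisomerase of dividing cells, was low in both libraries, with means of 0.108 and 0.0973, and 1.67% and 1.56% of thinned cells had a UMI. Of 36 proteasome genes, 30 had a ratio above 0 (49.6% over all genes) but the median was 0.16. The 3 neuron markers compared (Map2, Gad1 and Prox1) had ratios from -0.18 to -0.07. Among the 5 oligodendrocyte lineage markers, Bcas1 was 2.05-fold higher, while Olig2 had means of 4.76 and 6.36 and Ptprz1 had 9.13 and 16.8. Of 7 neural progenitor markers compared, 1 (Tnc) was 2-fold higher and 0 were lower, against 1.68% and 1.15% over all genes. Their median was -0.06, with ratios from -0.73 (Slc1a3) to 1.68 (Tnc). Hopx, a marker of neural stem cells in this list, had means of 1.59 and 1.66.

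**Figure D3:**
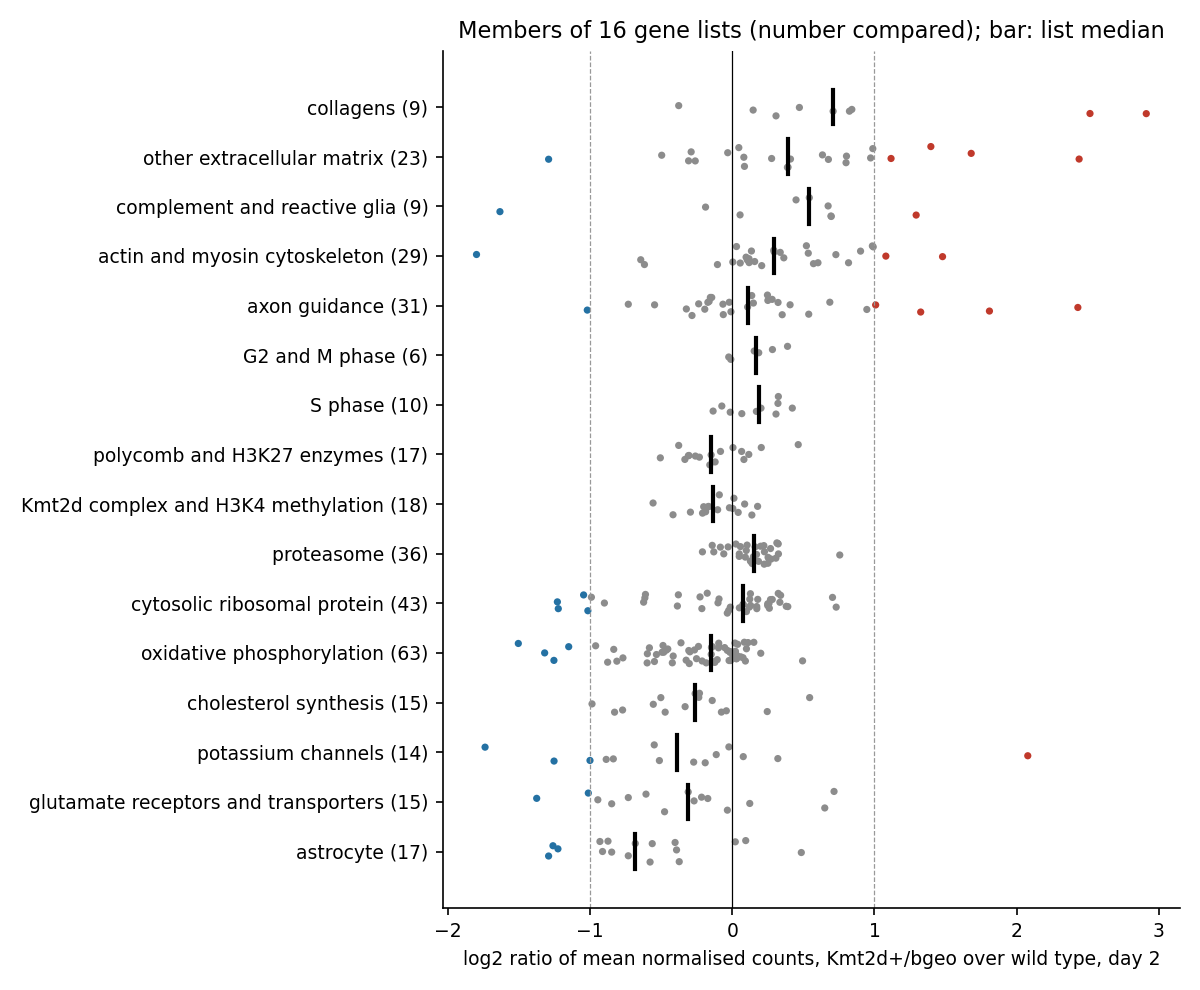
Day 2 log2 ratio of the means, with wild type as the denominator (x), for each member (point) of 16 gene lists (y, number compared in brackets), with the list median as a black bar, dashed lines at a 2-fold difference, and members past it in red (higher) or blue (lower). The astrocyte median lies at -0.68 and the collagen median at 0.71, while the lists of Kmt2d and polycomb genes hold no member past the dashed lines.

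Ribosomal protein and respiratory chain genes held 4 lower genes each and 0 higher ones, of 43 and 63 compared, against 1.15% lower and 1.68% higher over all genes, with list medians of 0.08 and -0.15. These were Rps29, Rpl38, Rps27 and Rpl39 (for example 5.66 against 13.3 for Rps29) and Atp5k, Ndufa3, Atp5md and Atp5mpl (0.783 against 2.22 for Atp5k). The spans of Ndufa3 and Atp5md overlap another gene. In GENCODE M21 the longest transcript of 7 of these genes is 371 to 612 nt, and that of Atp5md is 2733 nt. At day 4 the 8 genes had ratios from -0.78 to -0.52. Over all genes compared, the longest transcript was under 500 nt for 22. Of these 22, 20 had a ratio below 0 at day 2, with a median of -0.64, and 4 were 2-fold lower. The 293 genes from 500 to under 1000 nt had a median of 0.14 at day 2, with 6 higher and 6 lower. Within the ribosomal list, the 6 short genes had a median of -1.02 and the 37 longer ones a median of 0.12. The short genes of the respiratory list were lower too, but only 2 were under 500 nt and the longer ones also leaned below 0. Over this whole list, 46 of 63 genes were below 0. Its 2 short genes had a median of -1.14 and its 61 longer ones a median of -0.15. Of these 61, 44 were below 0 and 3 were 2-fold lower. At day 4, where the median over all genes was 0.04, all 22 short genes were below 0, with ratios from -0.78 to -0.03. At day 0 and day 8 the sign was the other, with 16 of 20 and 20 of 22 above 0. The part of library preparation in this pattern was not tested.

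**Figure D4:**
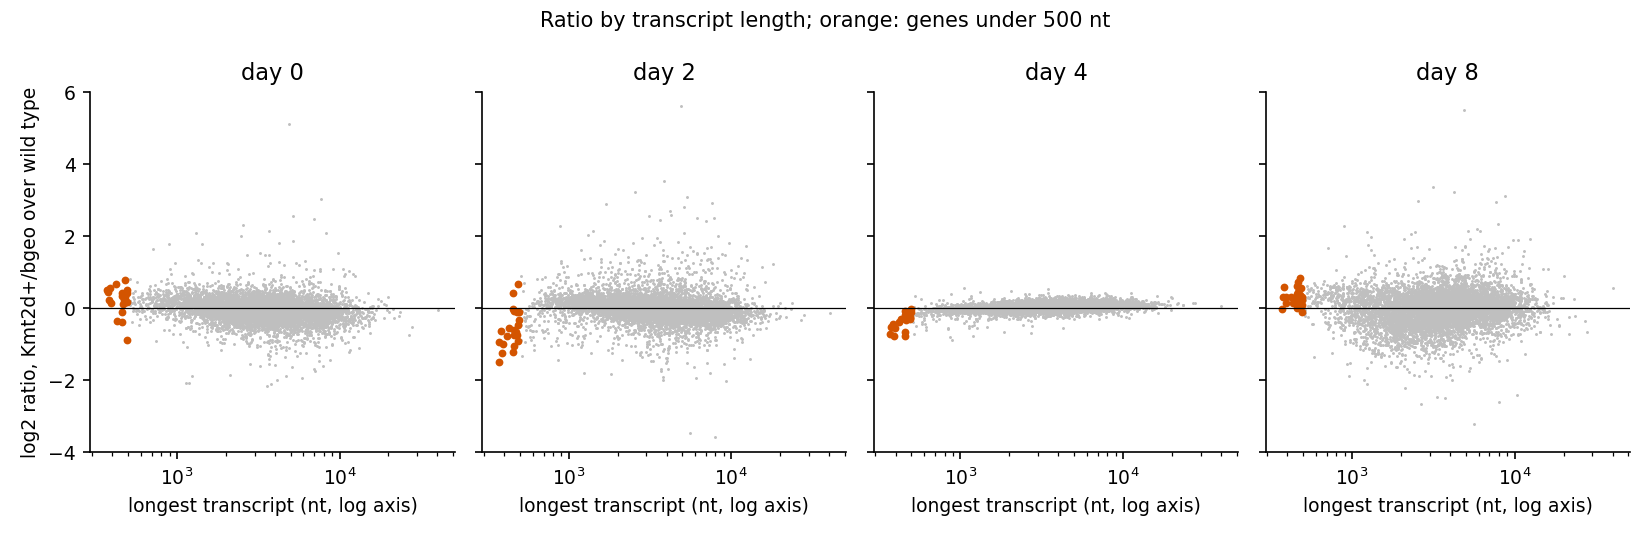
Log2 ratio of the means, with wild type as the denominator (y), against the length of the longest annotated transcript (x, nt, log axis) for each gene compared at day 2, in 1 panel for each day. The 22 genes under 500 nt (orange) have medians of 0.26, -0.64, -0.28 and 0.31 at days 0, 2, 4 and 8, and at day 4 they stand apart from the other genes (grey).

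The genes that differed at day 2 were also looked up at day 0 and at day 8. Of the 124 higher genes, 75 reached the level compared at day 0, 70 of these had a ratio above 0 and 32 were also 2-fold higher. Over all genes compared at day 0, 44.5% had a ratio above 0 and 0.674% were 2-fold higher. At day 8, 84 of 104 were above 0, against 51.2% of all genes, and 39 were 2-fold higher, against 2.06%. Of the 85 lower genes, 60 of 71 were below 0 at day 0, against 55.5% of all genes, and 23 were 2-fold lower, against 0.871%. At day 8 the counts were 63 of 79, against 48.8% of all genes, and 35, against 2.81%. These counts include genes that reached the level compared only in the library where they were high, which fixes their sign. With such genes left out, 48 of 53 higher genes were above 0 at day 0 and 16 were 2-fold higher, and at day 8 the counts were 59 of 79 and 18. Of the lower genes, 46 of 57 were then below 0 at day 0 and 12 were 2-fold lower, and at day 8 the counts were 49 of 65 and 25. Over all genes that reached the minimum in wild type, 43.4% and 49.6% were above 0 at days 0 and 8, and over those that reached it in Kmt2d+/βgeo, 54.1% and 46.9% were below 0. The share past 2-fold was not counted over those genes. At day 4, 0 of either group passed 2-fold. The libraries of the 3 days may come from the same culture of each genotype, so the days are not replicates of each other. Of the 124 higher and 85 lower genes, 65 and 67 were compared at both day 0 and day 8. On all of days 0, 2 and 8, 17 genes were 2-fold higher, among them Luzp2, Irx5, Nr2f2, Col11a1, Col5a3, Meis1, Nfasc, Plxdc2 and Kcnd2, and 12 were 2-fold lower, among them Cpe, Meis2, Kcnj16, Trim2, Rnf180, Tagln3 and Cd109. Most of these were under a mean of 0.1 in the lower library on at least one of the days. Only 3 of the 17 (Meis1, Cd302 and Gm47283) and 4 of the 12 (Cpe, Meis2, Rnf180 and Enpp2) reached it in that library on all of these days.

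Some ratios were farther from 0 at day 2 than before growth factor withdrawal. The genes were picked for passing 2-fold at day 2, which by itself favours a smaller ratio on another day. Others were closer to 0 at day 2, such as Cpe (-1.86 at day 0 and -1.45 at day 2) and Rnf180 (-2.09 and -1.90). Glul had a ratio of -0.38 at day 0 and -1.23 at day 2, Gja1 had -0.07 and -1.26, and Lamc1 had 0.37 and 1.12. At day 8 Glul, Gja1 and Lamc1 were at -1.73, -0.57 and 0.97. In the day 4 pair, whose label is in doubt, they were at 0.06, 0.07 and 0.17. Cnn2 and Gmpr had ratios of -0.30 and -0.20 at day 0. Of the lower genes, 11 had a ratio of the other sign at day 0, and these included the short genes Atp5k, Rps29, Rpl38 and Rps27.

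**Figure D5:**
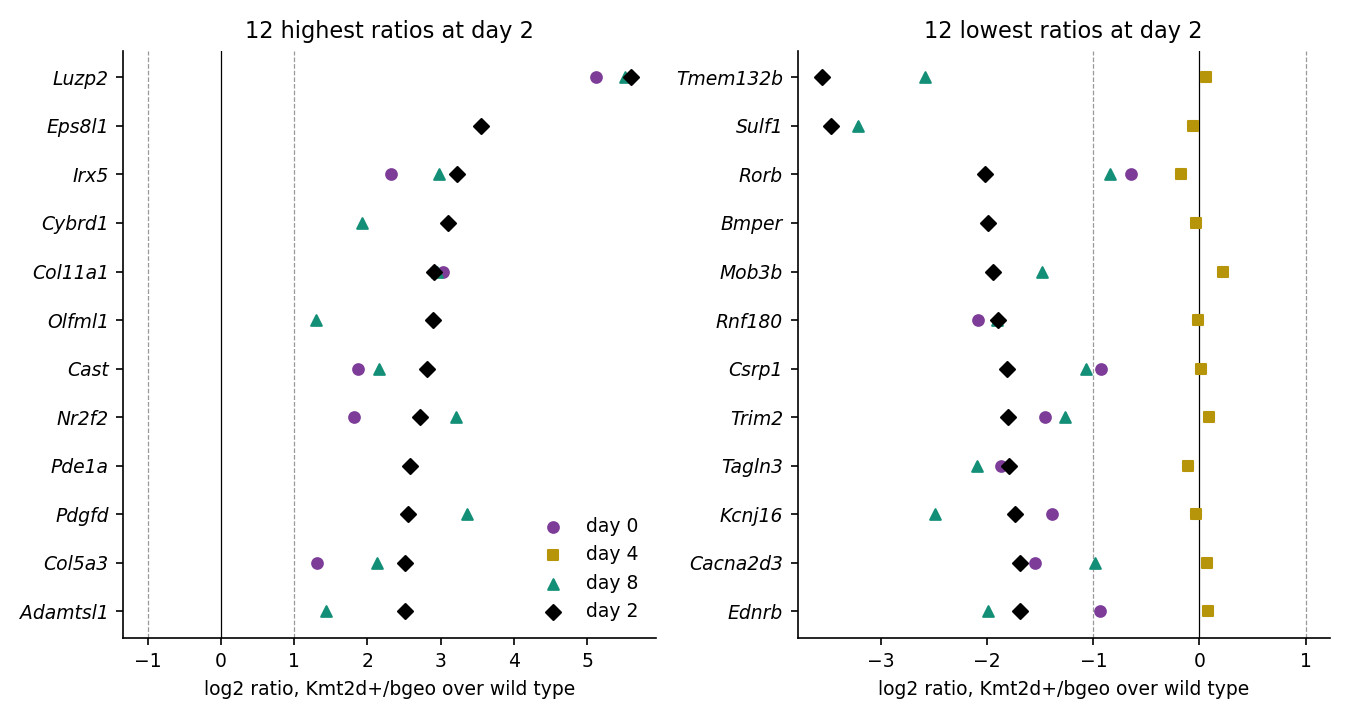
Log2 ratio of the means, with wild type as the denominator (x), at days 0, 2, 4 and 8 for the genes with the 12 highest (left) and 12 lowest (right) ratios at day 2, where a missing symbol is a gene below the level compared on that day. Luzp2 lies above 5 on days 0, 2 and 8, and the day 4 values of the right panel lie near 0.

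Genes were also sorted by their change with time in wild type. The time list used neither library of day 2. It took the wild-type label of day 4 as given, although the label of the day 4 pair is in doubt. Of 798 genes at least 2-fold higher in wild type at day 4 than at day 0, 36 were higher and 34 lower in Kmt2d+/βgeo at day 2 (4.51% and 4.26%), with a median ratio of -0.03. Of 420 genes at least 2-fold lower over that time, 18 were higher and 8 lower (4.29% and 1.90%), with a median of 0.01. Among the 5982 genes between, 32 and 43 differed (0.535% and 0.719%). The other 164 genes were under the minimum mean in both wild-type libraries of the time list, and 38 of them were higher and 0 lower at day 2. Of the 164, 83 were under the minimum in wild type at day 2 too and were compared only through their Kmt2d+/βgeo mean, so that these counts follow largely from the minimum.

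The positions of the differing genes were counted only by chromosome and in a window around Kmt2d. By chromosome, 1.23% to 4.48% of autosomal genes compared were past 2-fold in either direction, against 2.84% over all. Within 10 Mb of the start of Kmt2d, 72 genes were compared, of which 1 was higher and 1 lower (2.78%). These were Cpne8, a calcium-dependent membrane-binding protein gene (0.667 against 0.197), and Nell2, for a secreted protein of neural tissue (0.799 against 2.22), whose span overlaps another gene. On the Y chromosome, 1 of 5 genes passed, the gene model Gm47283, with means of 3.27 and 0.669, 4.88-fold higher.

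Not all of the differences reached 2-fold within subsets of cells. Olig2, a transcription factor of glial progenitors, had a UMI in 74.1% of Kmt2d+/βgeo and 81.4% of wild-type cells before thinning. In the cells with an Olig2 UMI, 108 of the 124 higher genes and 70 of the 85 lower genes were still past 2-fold, and in the cells without one, 108 and 73 were. Luzp2 had ratios of 6.24 and 4.50 in these subsets, Cpe had -1.35 and -1.83, and Sparcl1 had -1.27 and -1.55. Cells were also split at the median Apoe value of both libraries together. Above it lay 56.8% of Kmt2d+/βgeo and 41.9% of wild-type cells. In those cells 113 of the higher and 76 of the lower genes stayed past 2-fold, and in the rest 94 and 66 did. Gmpr, for example, had a ratio of 1.14 above the median and of 0.82 in the rest.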

How the data were processed

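The authors counted spliced molecules with Alevin in Salmon 1.3.0 against a GRCm38 index, removed cells with few genes and outliers in depth, mitochondrial share or doublet score, and deposited log2 values of library-size normalised counts for 9140 genes, with a cell table that holds each cell's total UMIs as an estimated count. Doublets were therefore treated before deposit. The submitters' processing notes also name Seurat 3.2.2. Here the deposited log2 values were turned back to normalised counts (2 to the power of the value, minus 1), which summed to 8707.14 in every cell. The commonest nonzero value of a cell was taken as 1 UMI, and 86.8% of nonzero values were then within 0.01 of a whole UMI.

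Means over cells were compared by their log2 ratio where either mean was at least 0.1, and genes were counted at a ratio of 1 or more in size. There is 1 library per group, so no test was run. Intervals are exact (Clopper-Pearson or conditional binomial, 95%) and cover counting error only, over the depth of each library. Cells were thinned to 3000 UMIs, which left out 0 cells. Named genes were the 12 highest and 12 lowest ratios, the 6 largest increases and decreases in mean past the threshold, up to 4 members past it per direction and the most abundant member of each list, a fixed set, and genes past it within 10 Mb of Kmt2d. S100b, Slc1a2, Aldh1l1, Nfia, Col5a2, Gria3, Kcnj10, Stat3, Kmt2a, Kmt2c, Gad1, Prox1, Dynlrb2, Cd302, Enpp2 and Bace2 were added to these with their values in view. The comparison, the gene lists and the alternatives were chosen with earlier results of these data known. The code was tested on simulated data with known folds. Python 3.11.15, NumPy 2.4.6, pandas 2.3.3, SciPy 1.17.1 and Matplotlib 3.10.9 were used. The methods and the labels differ in the embryonic day of the embryos, which is not given here for that reason. Results for some genes are not reported here.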

Additional observations from a re-analysis of the deposited data

Results flagged for a closer look

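A pair of genes was 2-fold higher in Kmt2d+/βgeo at day 2 and 2-fold lower on another day. Bace2, which encodes a membrane protease, had a log2 ratio of 1.25 at day 2 (means of 1.21 and 0.507) and of -1.32 at day 8 (0.543 and 1.36). The gene model Gm49980 had a ratio of 1.60 at day 2 (0.156 and 0.0515) and of -2.08 at day 0 (0.0910 and 0.384). On each of these days Gm49980 was compared only through the library where it was high, which fixed the sign. With 1 library per genotype and day, the difference between days was not tested. Outliers within a group could not be looked for with 1 library in each.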

How the results depend on the processing

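The counts of 124 higher and 85 lower genes followed the choice of scale and threshold. With a minimum mean of 0.5 there were 37 and 46, at a threshold of 1.5-fold 308 and 287, and as a difference of mean log2 values, which compresses low genes, 4 and 6. The split between directions thus turned with the minimum mean. Summed UMIs (126 and 84), a shift to a median of 0 (124 and 84), thinned cells (125 and 90), cells of middle depth (124 and 89), a minimum of 10 UMIs (173 and 106) and leaving out the 1% of cells with the highest values (149 and 108) stayed within 1.5 times. With the genes under 500 nt left out, chosen after seeing the data, 124 and 81 remained. Of 96 named genes past the threshold, 9 stayed past it as a difference of mean log2 values, 77 in cells with Apoe at or below the pooled median, 91 in the cells above it, 84 and 85 in cells with and without an Olig2 UMI, 91 in thinned cells and 90 in cells of middle depth, and 0 reversed under any setting run. Of the list medians, those near 0 changed sign under some settings, but those of the astrocyte, collagen, other matrix, glutamate and potassium channel lists did not. No paired analysis was possible because the comparison is of day 2 alone, with 1 library per genotype, and the other days are not replicates of it. Depth limits the low genes most.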
